A study of Homo sapiens with 12 samples.

Results

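The 10 genes described here are serum- and activity-responsive transcripts and their partners: EGR1, EGR2, EGR3, NAB1, NAB2, IER2, IER3, IER5, ARC and SRF. They were listed by name, and the list was chosen by measured values too, since the higher signal of EGR1, IER3 and ARC at 500 nM THZ531 was already known. The 500 nM values are therefore given as a description, without a test. Of the 10 genes, 9 had values among 16913 genes kept from the array table, and 8 were among the 10148 genes bright enough to be tested. EGR2 was not analysed here. EGR3, with a mean of 5.60 (log2) over the 12 arrays, lay under the level required for testing, the 40th percentile of the kept genes at 5.94.

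The samples came from A673 and TC32, established cell lines of Ewing sarcoma. Ewing sarcoma arises in bone or soft tissue, and its driver is a fusion protein that joins EWSR1 to FLI1 or a relative of FLI1. Each line received THZ531, at 100 nM or 500 nM, or only its solvent DMSO, and was sampled after 6 hours, giving 6 groups of 2 arrays that the labels call biological replicates. THZ531, written THZ_5_31_1 in the sample labels, binds covalently to CDK12 and CDK13 and blocks these kinases, whose substrate is the tail of elongating RNA polymerase II. All cells were kept in medium with 10% fetal bovine serum.

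Immediate-early genes are transcribed within minutes of a stimulus without new protein synthesis, and their RNAs are short-lived. Growth factor signals pass through RAS, RAF, MEK and ERK to ETS-type cofactors of SRF, which binds CArG boxes in the promoters of such genes. EGR1, EGR2 and EGR3 are zinc finger transcription factors of this class. NAB1 and NAB2 are corepressors that bind EGR proteins, and NAB2 is itself induced by EGR1. IER2 is a nuclear immediate-early protein, IER3 a stress-induced regulator of survival, and IER5 a regulator of the heat shock factor HSF1. ARC is a synaptic protein related to retrotransposon Gag, best known from neurons.

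Each gene has 1 log2 signal per array, used as the authors deposited it. The median over the 10148 tested genes was between 6.87 and 8.87 (log2) on the 12 arrays, lower at 500 nM than under DMSO in both lines. Of the 2 A673 arrays at 500 nM, replicate 2 lay lower, at 7.43 against 7.98 for replicate 1, and every gene described here was also lower on it. Each difference is given as deposited and, where it matters, relative to the array medians, that is, after centring each array on its median over all kept genes. Centring took out shifts of -0.618 for A673 at 100 nM, -0.206 for TC32 at 100 nM, -0.832 for A673 at 500 nM and -0.792 for TC32 at 500 nM. Fewer cells, less RNA per cell and array scaling cannot be told apart in such a shift. The rank of a gene among all tested genes in a comparison is the same on both scales. Of 11 markers of Ewing sarcoma 10 had values, and these stood at or above 5.94 in every group except FLI1 in TC32 at 500 nM, at 5.66. The leukocyte marker PTPRC was between 3.63 and 4.06 and the epithelial marker EPCAM between 4.03 and 4.32 in the 6 groups. These low values do not stand for all markers of other cell types. CD79A, CLDN4 and SYP were at or above 5.94 in all 6 groups. Their lowest group means were 6.53, 6.65 and 6.6 in that order, each in TC32 at 500 nM. KRT18 reached 11.95 in A673 against 5.26 in TC32, both under DMSO. Of 15 markers of other cell types, 12, 10 and 11 stood at or above 5.94 in A673 and 6, 6 and 3 in TC32, under DMSO, 100 nM and 500 nM in that order, and their part in the results was not tested.

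The promoters of 4 members are shown because they carry, or lack, the letters that SRF and EGR proteins recognise, and because these genes differed in their response. Each sequence holds the 250 bases before the first annotated transcription start in RefSeq, build GRCh38.p14, plus strand, 5′ to 3′. Capitals mark CArG boxes, searched by their consensus of CC, 6 A or T bases and GG, and the EGR motif GCGNGGGCG, searched on both strands.
EGR1, chr5:138465229-138465478: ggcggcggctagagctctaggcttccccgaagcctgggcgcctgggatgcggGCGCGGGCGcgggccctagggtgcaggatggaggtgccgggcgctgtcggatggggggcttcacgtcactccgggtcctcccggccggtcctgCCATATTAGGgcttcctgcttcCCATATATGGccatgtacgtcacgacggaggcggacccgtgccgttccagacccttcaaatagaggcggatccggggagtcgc
SRF, chr6:43171019-43171268: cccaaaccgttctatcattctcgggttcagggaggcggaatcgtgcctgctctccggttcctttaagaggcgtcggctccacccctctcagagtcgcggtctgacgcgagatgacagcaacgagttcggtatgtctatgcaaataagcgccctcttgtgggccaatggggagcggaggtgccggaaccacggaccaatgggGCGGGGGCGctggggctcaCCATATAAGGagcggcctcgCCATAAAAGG
NAB2, chr12:57088864-57089113: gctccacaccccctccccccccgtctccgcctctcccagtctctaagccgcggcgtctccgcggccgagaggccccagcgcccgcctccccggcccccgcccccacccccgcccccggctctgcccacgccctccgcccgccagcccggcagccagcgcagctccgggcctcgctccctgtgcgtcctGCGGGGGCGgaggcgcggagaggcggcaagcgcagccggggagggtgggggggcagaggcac
IER2, chr19:13150161-13150410: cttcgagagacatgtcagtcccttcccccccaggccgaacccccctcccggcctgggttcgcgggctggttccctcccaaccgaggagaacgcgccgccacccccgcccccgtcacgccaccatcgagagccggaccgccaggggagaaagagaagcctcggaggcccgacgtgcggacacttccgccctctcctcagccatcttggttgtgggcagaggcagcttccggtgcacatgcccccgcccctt
EGR1 held 2 CArG boxes, CCATATTAGG and CCATATATGG, whose first bases lie 105 and 83 bases before the start, and 1 EGR motif 198 bases before it. SRF held 2 CArG boxes, CCATATAAGG and CCATAAAAGG, 30 and 10 bases before the start, and 1 EGR motif 49 bases before it. NAB2 had no CArG box and 1 EGR motif, GCGGGGGCG, 62 bases before the start, and IER2 had neither. Among 35116 RefSeq promoters of this length, 1.16% held a CArG box and 8.41% the EGR motif. Of the 9 members with values, 6 had a promoter in the table, and in this window IER5 had neither motif while 2 of the 3 starts of NAB1 had the EGR motif alone. Such matches describe letters, and nothing follows from their absence about binding.

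EGR1 stood far apart between the lines and was highest at 500 nM in each. In A673 it measured 10.76 and 10.56 (log2) under DMSO, 9.97 and 9.84 at 100 nM, then 12.06 and 11.55 at 500 nM. TC32 gave 6.57 and 6.27 under DMSO, 6.98 and 7.08 at 100 nM, then 9.55 and 9.32 at 500 nM. None of the 6 groups overlapped another, and the order from the highest was A673 at 500 nM, A673 under DMSO, A673 at 100 nM, then TC32 at 500 nM, 100 nM and under DMSO. The TC32 arrays at 500 nM thus lay below every A673 array. After centring, TC32 at 500 nM (3.73 ± 0.12, SD, n = 2) came above A673 under DMSO (3.47 ± 0.04, SD, n = 2), so that part of the order depends on the scale.

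At 500 nM the EGR1 signal differed from DMSO by 3.02 ± 0.21 in TC32 (log2, SE, n = 2 against 2), or 8.11-fold, and by 1.14 ± 0.21 in A673, or 2.21-fold. In TC32 this was the second highest of 10148 fitted differences (rank 2), and in A673 it had rank 36. Between 500 nM and 100 nM EGR1 had rank 1 in both lines, at 1.90 ± 0.21 in A673 and 2.41 ± 0.21 in TC32. At the lower dose, which shares its DMSO arrays with these values, the fitted differences had opposite signs in the lines. In A673 EGR1 fell at 100 nM by 0.76 ± 0.21 (log2, SE, n = 2 against 2; limma adjusted p 0.000912), with both arrays below both DMSO arrays. That call ended after centring (-0.14, adjusted p 0.38) and without replicate 1 of the A673 DMSO arrays (-0.66, adjusted p 0.0501); over 18 alternatives the adjusted p lay between 1.14e-05 and 0.38. In TC32 EGR1 rose at 100 nM by 0.61 ± 0.21 (adjusted p 0.0146), and by 0.82 after centring (adjusted p 8.79e-06). Its TC32 call was lost without DMSO replicate 2 (0.46, adjusted p 0.279) and without replicate 1 or 2 of the 100 nM arrays (0.67 and 0.56, adjusted p 0.0799 and 0.162), within a range of 3.31e-06 to 0.279 over 18 alternatives.

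**Figure D1:**
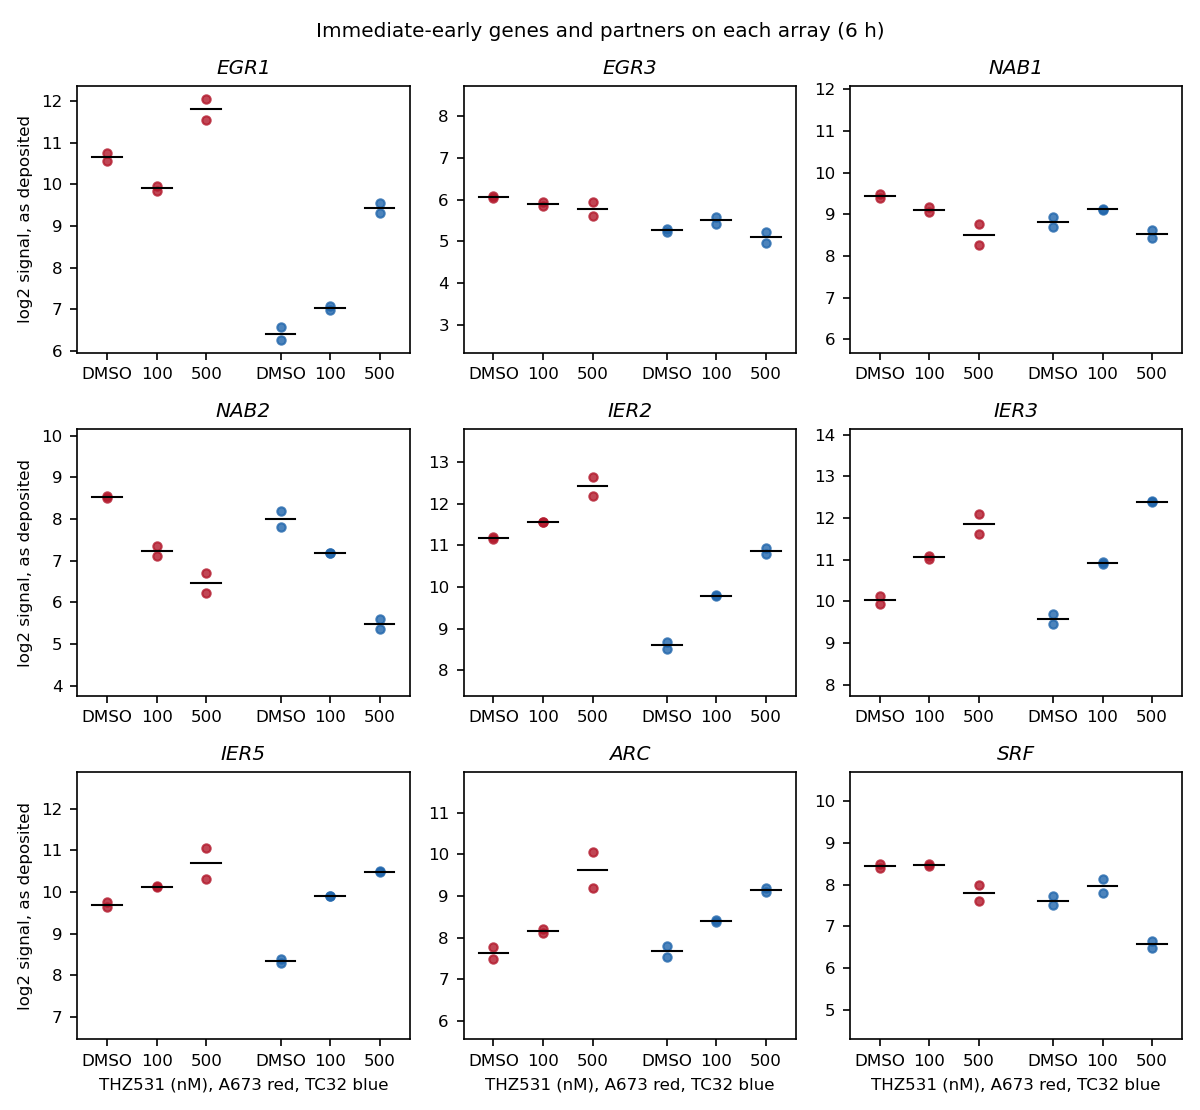
The log2 signal as deposited (vertical axis) of the 9 genes with values on each array, by THZ531 dose in nM (horizontal axis), A673 in red and TC32 in blue; lines are group means, and all panels span the same range. EGR1 dips at 100 nM in A673 and steps up from DMSO to 500 nM in TC32, NAB2 steps down in both lines, and IER2, IER3, IER5 and ARC step up with dose in both.

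EGR3, the second EGR gene with values, was near the level required for testing. In A673 it measured 6.09 and 6.05 under DMSO, 5.84 and 5.96 at 100 nM, then 5.95 and 5.60 at 500 nM. TC32 gave 5.23 and 5.30 under DMSO, 5.58 and 5.43 at 100 nM, then 5.24 and 4.97 at 500 nM. The A673 arrays at 500 nM overlapped those at 100 nM, and the TC32 arrays at 500 nM overlapped those under DMSO. No fold is given for EGR3, since 5 of its 6 group means lay under 5.94.

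NAB2 differed from DMSO in the direction opposite to EGR1 at 500 nM and was the 1 tested member that fell at 100 nM in both lines. In A673 it measured 8.52 and 8.56 under DMSO, 7.35 and 7.12 at 100 nM, then 6.70 and 6.23 at 500 nM. TC32 gave 8.19 and 7.81 under DMSO, 7.19 and 7.18 at 100 nM, then 5.60 and 5.35 at 500 nM. The 3 dose groups did not overlap in either line. At 100 nM NAB2 fell by 1.31 ± 0.21 in A673 (SE, n = 2 against 2, limma adjusted p 6.3e-09), or 2.48-fold, and by 0.82 ± 0.21 in TC32 (adjusted p 0.000684), or 1.76-fold. Counted from the lowest, these were ranks 682 in A673 and 1186 in TC32 of 10148, where 58.7% and 20.9% of all tested genes fell. Relative to the array medians the differences were -0.69 (limma adjusted p 0.000277) and -0.61 (adjusted p 0.000657). The A673 call held in all 18 alternatives and the TC32 call in 17 of 18, the exception being without replicate 1 of the TC32 DMSO arrays (-0.63, adjusted p 0.116; range over the alternatives 2.9e-09 to 0.116). At 500 nM NAB2 differed from DMSO by -2.08 ± 0.21 in A673 and by -2.53 ± 0.21 in TC32. Its TC32 mean of 5.48 at 500 nM lay under 5.94, and the signal was at least 4.17-fold lower. The ranks from the lowest were 656 in A673 and 407 in TC32. Of all tested genes 82.9% and 89% had both 500 nM arrays below both DMSO arrays.

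NAB1, the paralogous corepressor, changed less. It measured 9.49 and 9.38 in A673 under DMSO, 9.04 and 9.17 at 100 nM, then 8.76 and 8.26 at 500 nM. TC32 gave 8.93 and 8.68 under DMSO, 9.13 and 9.11 at 100 nM, then 8.42 and 8.61 at 500 nM. At 100 nM neither difference passed the test as deposited, at -0.33 ± 0.21 in A673 (limma adjusted p 0.15, n = 2 against 2) and 0.31 ± 0.21 in TC32 (adjusted p 0.314). After centring NAB1 was higher in TC32 (0.52, adjusted p 0.00148), and its sign turned in A673 (0.29, adjusted p 0.0618). NAB1 passed as deposited without either A673 array at 500 nM, lower in A673 (adjusted p 0.0091 and 0.00916) and higher in TC32 (adjusted p 0.022 and 0.0221), and in a fit of the TC32 arrays alone (adjusted p 0.0163). At 500 nM the differences as deposited were -0.92 ± 0.21 in A673 and -0.29 ± 0.21 in TC32, and the second of these turns to 0.50 relative to the array medians.

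SRF, the transcription factor upstream of this gene class, did not pass the test at the lower dose as deposited and measured lower at the higher one. In A673 it measured 8.49 and 8.40 under DMSO, 8.44 and 8.51 at 100 nM, then 7.98 and 7.61 at 500 nM. TC32 gave 7.72 and 7.51 under DMSO, 8.13 and 7.80 at 100 nM, then 6.48 and 6.65 at 500 nM. At 100 nM the differences of 0.03 ± 0.21 in A673 (limma adjusted p 0.909, n = 2 against 2) and 0.35 ± 0.21 in TC32 (adjusted p 0.239) missed the test. Both passed it after centring, at 0.65 (adjusted p 0.000228) and 0.55 (adjusted p 0.00076). The TC32 difference also passed in a fit of the TC32 arrays alone (adjusted p 0.0135) and without either A673 array at 500 nM (adjusted p 0.0291 and 0.0296). At 500 nM SRF differed from DMSO by -0.65 ± 0.21 in A673 and -1.05 ± 0.21 in TC32, with ranks of 4283 and 6914 from the highest among 10148 genes. The A673 difference turns to 0.18 on the centred scale, where that of TC32 was -0.26.

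The 3 IER genes had higher mean signals than under DMSO at both doses in both lines. IER3 measured 10.12 and 9.93 in A673 under DMSO, 11.10 and 11.03 at 100 nM, then 12.10 and 11.61 at 500 nM. TC32 gave 9.70 and 9.46 under DMSO, 10.96 and 10.91 at 100 nM, then 12.41 and 12.38 at 500 nM. The 6 groups did not overlap, and as deposited IER3 was the 1 member with its highest group in TC32. After centring NAB1, NAB2, IER5 and ARC also had theirs in TC32. At 100 nM IER3 rose by 1.04 ± 0.18 in A673 (SE, n = 2 against 2, limma adjusted p 1.45e-07), or 2.05-fold, and by 1.35 ± 0.18 in TC32 (adjusted p 5.19e-12), or 2.55-fold. These were ranks 36 and 63 of 10148, and both calls held in all 18 alternatives. At 500 nM the differences were 1.83 ± 0.18 in A673 and 2.81 ± 0.18 in TC32, at ranks 10 and 5.

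IER2 measured 11.21 and 11.14 in A673 under DMSO, 11.57 and 11.56 at 100 nM, then 12.65 and 12.19 at 500 nM. TC32 gave 8.68 and 8.52 under DMSO, 9.78 and 9.81 at 100 nM, then 10.94 and 10.78 at 500 nM. As deposited all A673 arrays lay above all TC32 arrays, and the 3 dose groups of each line stood apart in rising order. After centring, the TC32 arrays at 500 nM (5.20 and 5.10) lay above the A673 arrays at 100 nM (4.96 and 5.02) and under DMSO (3.89 and 4.07). At 100 nM IER2 rose in TC32 by 1.19 ± 0.19 (limma adjusted p 3.84e-09, n = 2 against 2), or 2.29-fold, a call that held in all 18 alternatives. In A673 the difference of 0.38 ± 0.19 missed the test as deposited (adjusted p 0.0626) and passed it once centred (1.00, adjusted p 1.13e-07). It also passed without either A673 array at 500 nM (adjusted p 0.000516 and 0.000521), and over the 18 alternatives the adjusted p reached 0.205. At 500 nM IER2 differed from DMSO by 1.24 ± 0.19 in A673 and by 2.26 ± 0.19 in TC32. After centring, its 2 A673 arrays at 500 nM were 6.06 ± 0.001 (SD, n = 2), against a spread of 0.33 (SD) as deposited.

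IER5 measured 9.75 and 9.63 in A673 under DMSO, 10.11 and 10.14 at 100 nM, then 11.05 and 10.32 at 500 nM. TC32 gave 8.41 and 8.29 under DMSO, 9.90 and 9.91 at 100 nM, then 10.50 and 10.48 at 500 nM. The wide spread at 500 nM in A673 overlapped the TC32 arrays at that dose, while within each line the dose groups stood apart. At 100 nM IER5 rose in TC32 by 1.56 ± 0.20 (limma adjusted p 2.99e-13, n = 2 against 2), or 2.94-fold, at rank 38, and the call held in all 18 alternatives. In A673 the difference of 0.43 ± 0.20 missed the test (adjusted p 0.0506), at rank 137, and passed it once centred (1.05, adjusted p 2.31e-07) and with replicate number within each line as a block (adjusted p 0.0459). Without either A673 array at 500 nM it passed as well (adjusted p 0.000193 and 0.000191), and the highest value over the 18 alternatives was 0.205. In TC32 most of the difference was present at the lower dose, with 2.14 ± 0.20 at 500 nM against DMSO and 0.58 ± 0.20 at 500 nM against 100 nM.

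ARC, known from synapses, was measured in both tumour lines and its signal under DMSO overlapped between them as deposited, while after centring it was at -0.73 in A673 against TC32 (log2, limma adjusted p 6.41e-05). In A673 it measured 7.79 and 7.48 under DMSO, 8.12 and 8.22 at 100 nM, then 10.06 and 9.19 at 500 nM. TC32 gave 7.80 and 7.55 under DMSO, 8.44 and 8.37 at 100 nM, then 9.09 and 9.20 at 500 nM. The lines overlapped under DMSO and at 500 nM, and within each line the 3 dose groups stood apart. At 100 nM ARC rose by 0.53 ± 0.21 in A673 (SE, n = 2 against 2, limma adjusted p 0.0222), or 1.44-fold, and by 0.73 ± 0.21 in TC32 (adjusted p 0.00276), or 1.66-fold. On the centred scale the differences were 1.15 (adjusted p 4.7e-07) and 0.94 (adjusted p 4.21e-06). The A673 call ended in a fit to the A673 arrays alone (adjusted p 0.129), without DMSO replicate 2 (0.38, adjusted p 0.219), and without 100 nM replicate 1 or 2 (adjusted p 0.0805 and 0.156). The TC32 call was lost without DMSO replicate 2 (adjusted p 0.117) or 100 nM replicate 1 (adjusted p 0.0654). Over 18 alternatives the adjusted p of ARC ranged from 4.7e-07 to 0.219 in A673 and from 3.62e-09 to 0.117 in TC32. At 500 nM the differences were 1.99 ± 0.21 in A673, at rank 7, and 1.48 ± 0.21 in TC32, at rank 27.

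**Figure D2:**
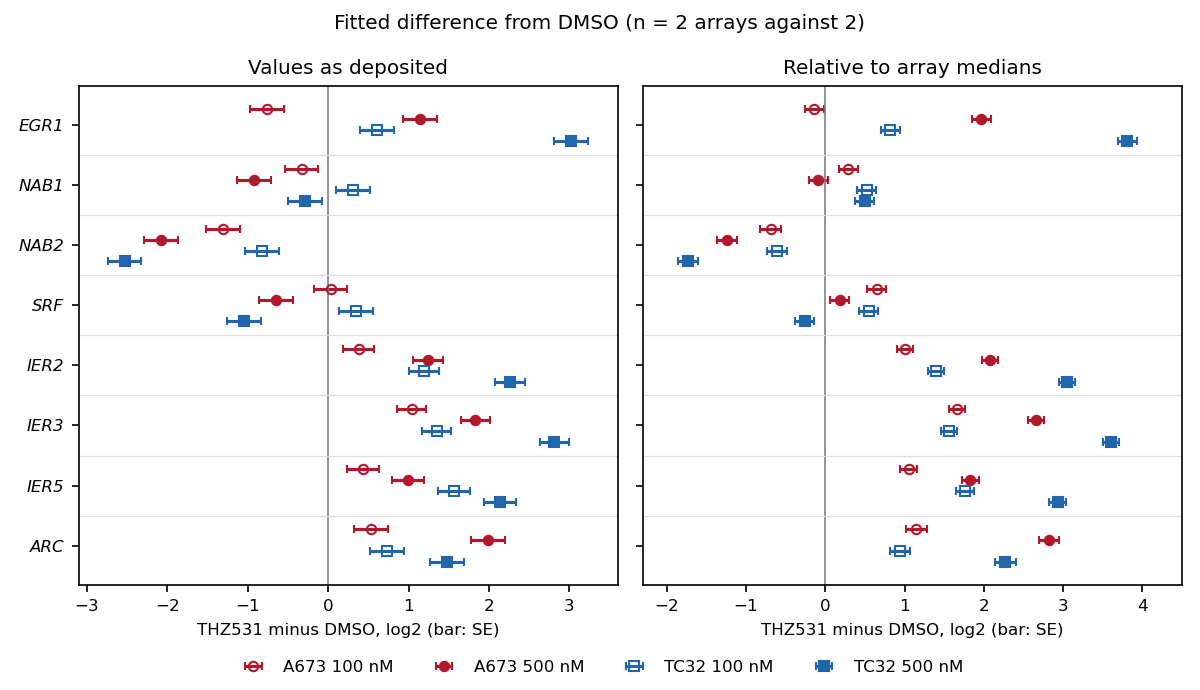
Fitted THZ531 minus DMSO difference (log2, horizontal axis; bars are SE, n = 2 against 2) of the 8 tested genes, as deposited on the left and relative to the array medians on the right, A673 as red circles and TC32 as blue squares, open at 100 nM and filled at 500 nM. The IER genes and ARC lie above 0 in all 4 comparisons on both scales, and NAB2 lies below 0 in all of them. SRF changes side with the scale in A673 at 500 nM, and NAB1 in A673 at 100 nM and in TC32 at 500 nM.

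Counted over the 8 tested genes, 100 nM in TC32 gave 5 that rose (EGR1, IER2, IER3, IER5 and ARC) and 1 that fell (NAB2), by limma on the values as deposited. Over all tested genes 5.56% rose and 20.9% fell. In A673 at 100 nM 2 rose (IER3 and ARC) and 2 fell (EGR1 and NAB2), where 1.31% of all tested genes rose and 58.7% fell. More members passed in A673 without either A673 array at 500 nM, but the share of all tested genes in those fits is not given here. Relative to the array medians 7 members were higher and 1 lower in TC32, against 30.6% and 21.2% of all tested genes, and 5 were higher and 1 lower in A673, against 24.4% and 17.1%. Counted from the highest, IER3, ARC, IER5 and IER2 had ranks 36, 111, 137 and 155 of 10148 in A673 at 100 nM. The other tested members SRF, NAB1, EGR1 and NAB2 had ranks 522, 2659, 7428 and 9466 there. In TC32 IER5, IER3, IER2 and ARC had ranks 38, 63, 90 and 277, and EGR1, SRF, NAB1 and NAB2 had 398, 1019, 1189 and 8959.

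**Figure D3:**
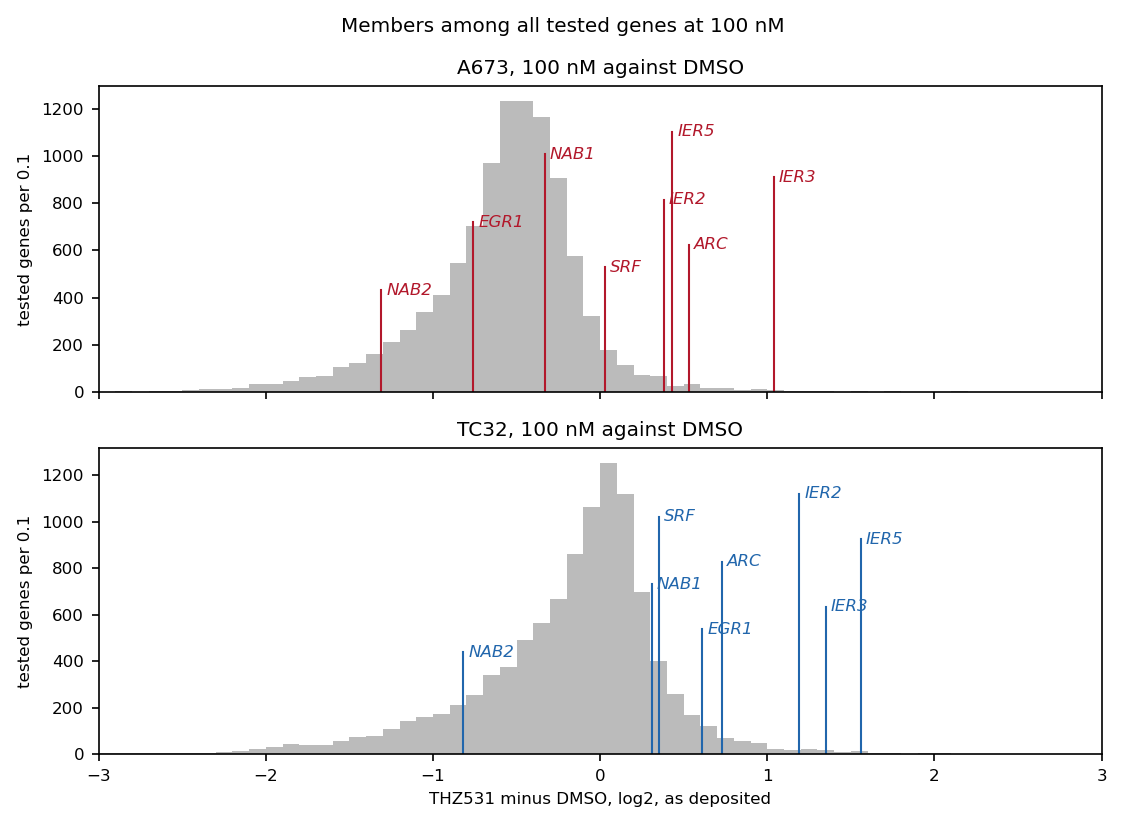
Number of tested genes (vertical axis, per bin of 0.1) by fitted 100 nM minus DMSO difference (log2 as deposited, horizontal axis), A673 above and TC32 below, with the 8 tested members as coloured lines whose heights carry no meaning. IER3 in A673, at 1.04, and IER5 in TC32, at 1.56, lie in the sparse right tails, and NAB2, at -1.31 in A673 and -0.82 in TC32, lies on the left slope in both lines.

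At 500 nM, the contrast known when the genes were chosen, both arrays of 5 members (EGR1, IER2, IER3, IER5 and ARC) lay above both DMSO arrays and those of 3 (NAB1, NAB2 and SRF) below them, in each line. Over all tested genes the same held for 1.05% above and 82.9% below in A673, and for 2.08% above and 89% below in TC32. Against 100 nM the same 5 members were above and the same 3 below in both lines, where 2.78% of all genes were above and 38.9% below in A673, and 4.6% above and 83.5% below in TC32. The EGR1, IER2, IER3 and IER5 differences from DMSO at 500 nM were larger in TC32 than in A673 by 1.88 ± 0.29, 1.02 ± 0.26, 0.98 ± 0.26 and 1.14 ± 0.28 (log2, SE), and that of ARC was smaller, at -0.51 ± 0.30. These are descriptions, and the comparisons share their DMSO arrays with those at 100 nM.

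Under DMSO most tested genes were higher in A673 than in TC32 as deposited, with a median difference of 0.81 (log2). Of the 8 tested members 7 were among them. The p-values as deposited are smaller than 2 arrays per group warrant. EGR1 was 4.24 ± 0.21 (log2, SE, n = 2 against 2) higher in A673 than in TC32 under DMSO (limma adjusted p 2.11e-91), or 18.9-fold. Relative to the array medians EGR1 was 3.55 higher (limma adjusted p 8.15e-17), at rank 48 of 10148. IER2 was 2.58 ± 0.19 higher (adjusted p 1.75e-41; relative 1.89), or 5.97-fold, and IER5 1.34 ± 0.20 higher (adjusted p 1.31e-10; relative 0.65). The calls of EGR1, IER2 and IER5 held in all 17 alternatives. SRF (0.83, adjusted p 0.000119), NAB1 (0.63, adjusted p 0.00368), NAB2 (0.54, adjusted p 0.0137) and IER3 (0.44, adjusted p 0.0193) were also higher in A673 as deposited. NAB1 was lost without A673 DMSO replicate 1 or TC32 DMSO replicate 2 (adjusted p 0.0545 and 0.088), NAB2 without replicate 2 of either line (adjusted p 0.0628 in A673 and 0.246 in TC32), and IER3 without A673 DMSO replicate 1 or TC32 DMSO replicate 2 (adjusted p 0.175 and 0.209). On the centred scale SRF and NAB1 missed the test (0.14 and -0.06), NAB2 turned to -0.16 and IER3 to -0.25 (adjusted p 0.0338). ARC did not pass as deposited (-0.04 ± 0.21, adjusted p 0.872) and was lower in A673 on the centred scale (-0.73, adjusted p 6.41e-05). In all 7 of 8 members were higher in A673 as deposited, where 77.4% of all tested genes were higher and 5.13% lower, and 3 were higher and 2 lower after centring, against 33.9% and 21.4%. Without replicate 2 of the TC32 DMSO arrays 4 members were called.

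Whether 100 nM acted differently in the 2 lines was tested as an interaction, TC32 minus A673. EGR1 passed at 1.37 ± 0.29 (log2, SE, n = 2 in each of 4 groups, limma adjusted p 0.00188), and 0.95 after centring (adjusted p 0.00368), at rank 16 of 10148. IER5 passed at 1.12 ± 0.28 (adjusted p 0.0133), and 0.71 relative (adjusted p 0.0174). These 2 of 8 members compare with 2.22% of all tested genes called higher and 0.0887% lower, and with 0.857% higher and 1.76% lower after centring. The EGR1 call ended without replicate 1 of the A673 DMSO arrays, replicate 2 of the A673 100 nM arrays or replicate 2 of the TC32 DMSO arrays (1.27, 1.30 and 1.22; adjusted p 0.129, 0.117 and 0.145; range over 17 alternatives 8.24e-05 to 0.145). The IER5 call ended without any 1 of the DMSO or 100 nM arrays except A673 DMSO replicate 2, with values between 1.06 and 1.18 and adjusted p between 0.0735 and 0.229. IER2 (0.81 ± 0.26, adjusted p 0.068) missed the test, passing it with replicate number within each line as a block (adjusted p 0.0332). NAB1, NAB2, IER3, ARC and SRF were between 0.20 and 0.64, with adjusted p between 0.167 and 0.595. Without either A673 array at 500 nM, 4 members were called, NAB1 (adjusted p 0.00418 and 0.00422) and IER2 (adjusted p 0.000345 and 0.000351) joining them.

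The genes whose course over the 12 arrays was most like that of EGR1, IER3 and ARC were found by the root mean square difference of centred values, each gene less its own mean. Nearest to ARC was IER5L, a paralogue of IER5, at 0.161 (log2), followed by ZFP36, which encodes an RNA-binding protein that destabilises short-lived transcripts, at 0.295, and the small nucleolar RNA host gene SNHG17 at 0.317, where the median over all genes was 1.12. For IER3 the nearest were the histone gene H3C1 (0.272), the small nucleolar RNA SNORA74A (0.295) and the polyamine enzyme gene SAT1 (0.303), against a median of 1.35. EGR1 had no such close neighbour: IER2 came first at 0.801, then the imprinted gene PHLDA2 at 0.994 and the apoptosis gene PMAIP1 at 1.02, against a median of 1.86.

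Other immediate-early transcripts spread in both directions. Of 41 listed genes 37 were tested. This list and those below were chosen with earlier results of these data known. Their counts beside the shares of all tested genes are therefore a description, not a test of a gene class. By limma as deposited 14 rose and 12 fell in A673 at 500 nM, with a median difference of -0.11 against -0.73 for all tested genes, of which 0.946% rose and 82.5% fell. In TC32 at 500 nM 8 rose and 14 fell, with a median of -0.24 against -0.64, where 0.946% of all genes rose and 62.9% fell. On the centred scale 26 were higher and 4 lower in A673, and 23 and 5 in TC32, where 29.6% of all genes were higher and 27.4% lower in A673 and 41.3% and 30.8% in TC32. At 100 nM 9 rose and 8 fell in A673, and 15 rose in TC32, where the others did not pass. Over all tested genes at this dose 1.31% rose and 58.7% fell in A673, and 5.56% rose and 20.9% fell in TC32. After centring 27 of the 37 were higher and 1 lower in A673, and 28 were higher in TC32, against 24.4% of all tested genes higher and 17.1% lower in A673 and 30.6% and 21.2% in TC32. In A673 those called were 8, 11 and 8 in all without replicate 1 of the DMSO arrays, or replicate 1 or 2 of the 100 nM arrays. In TC32 they were 8 and 5 without replicate 1 or 2 of the DMSO arrays, 8 without either 100 nM array, 9 without replicate 1 of the A673 100 nM arrays and 23 without either A673 500 nM array.

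The genes of that list with the highest mean difference at 500 nM were PLK2, a polo-like kinase gene (1.22 in A673 and 2.98 in TC32), IER5L (1.66 and 1.47) and GADD45B, a growth arrest gene (1.68 and 1.04). All 3 rose in both lines as deposited, which was a condition of naming them. PLK2 started from a TC32 DMSO mean of 4.73, so that counted from 5.94 its TC32 difference was 1.77. Those with the lowest were CEBPB, a C/EBP transcription factor gene (-1.79 and -2.25), PLK3, a second polo-like kinase gene (-1.22 and -1.23, with a TC32 mean of 5.52 at 500 nM), and KLF2, a Krüppel-like factor gene (-0.88 and -1.29). Their fall in both lines as deposited was likewise a condition of naming them. After centring CEBPB and PLK3 remained lower in both lines, while KLF2 was at -0.05 in A673 (adjusted p 0.717) and -0.50 in TC32.

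The genes that act above SRF fell at 500 nM in shares near those of all genes. Of 18 tested genes for SRF cofactors and the ERK pathway 16 fell in A673 by limma and 12 in TC32, the others not passing, where 82.5% and 62.9% of all tested genes fell. The list medians were -0.68 and -0.46, against -0.73 and -0.64 for all tested genes. The lowest mean differences were those of SOS1, an activator of RAS (-2.88 in A673 and -2.84 in TC32), SPRED1, an inhibitor of RAS signalling (-3.01 and -2.63), and MRTFB, an actin-regulated SRF cofactor (-3.28 and -2.31). All 3 were also lower relative to the array medians, between -1.52 and -2.45, and the 500 nM means of SPRED1 in both lines and of MRTFB in A673 lay under 5.94. On that scale the list held 6 higher and 5 lower genes in A673 and 10 higher and 6 lower in TC32. Over all tested genes 29.6% were higher and 27.4% lower in A673 on that scale, and 41.3% and 30.8% in TC32. The called genes were 9 without replicate 1 of the A673 DMSO arrays in A673, and 7 in TC32 without replicate 1 of the TC32 DMSO arrays or replicate 2 of its 500 nM arrays.

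The genes downstream of SRF and EGR1 are given beside the same all-gene values. Of 16 tested cytoskeletal SRF targets 7 fell in A673 and 6 in TC32 at 500 nM, the others not passing, against 82.5% and 62.9% of all tested genes. The medians were -0.34 and -0.26, against -0.73 and -0.64 for all tested genes. After centring 10 were higher in A673, against 29.6% of all tested genes higher and 27.4% lower. In TC32 14 were higher and 1 lower after centring, against 41.3% and 30.8%. The counts of falls were 3 without replicate 1 of the A673 DMSO arrays, 15 and 4 without replicates 1 and 2 of the A673 500 nM arrays, and in TC32 1 without replicate 1 of the DMSO arrays and 2 and 1 without replicates 1 and 2 of the 500 nM arrays. FHL2, a LIM protein gene, fell by 0.83 in A673 and 1.93 in TC32, where its 500 nM mean lay under 5.94, yet relative to the array medians it was at 0.00 in A673 and -1.14 in TC32. TPM1, a tropomyosin gene (-0.67 and -0.59), and VCL, encoding vinculin (-0.67 and -0.50), fell in both lines as deposited and turned positive after centring in both, at 0.16 and 0.20 for TPM1 and 0.16 and 0.30 for VCL. The TC32 calls of TPM1 and VCL ended without replicate 1 of the TC32 DMSO arrays (adjusted p 0.121 and 0.103) and without replicate 2 of its 500 nM arrays (adjusted p 0.0626 and 0.0742), and that of VCL without replicate 1 of them (adjusted p 0.0542).

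Of 15 genes listed as EGR1 targets 8 were tested, and at 500 nM 5 fell in A673 and 6 in TC32 as deposited, the others not passing, against 82.5% and 62.9% of all tested genes. The medians were -0.44 and -0.62, against -0.73 and -0.64. After centring 4 were higher in A673, against 29.6% of all tested genes higher and 27.4% lower. In TC32 4 were higher and 2 lower after centring, against 41.3% and 30.8%. The falls were 8 and 3 without replicates 1 and 2 of the A673 500 nM arrays, and 2 in TC32 without replicate 1 of its DMSO arrays. VEGFA, an angiogenic factor gene (-0.66 in A673 and -1.86 in TC32), FGF2, a fibroblast growth factor gene (-0.99 and -0.74), and ID3, a helix-loop-helix inhibitor gene (-0.42 and -1.24), had the lowest mean differences among those that fell in both lines. After centring VEGFA and ID3 turned to 0.17 and 0.41 in A673 and stayed at -1.07 and -0.45 in TC32, and FGF2 was at -0.16 and 0.05. FGF2 had means under 5.94 in TC32 in all 3 groups. The A673 call of ID3 was lost in a fit of the A673 arrays alone (-0.42, limma adjusted p 0.109). It was also lost without DMSO replicate 2 (-0.35) or 500 nM replicate 2 (-0.18), and the TC32 call of FGF2 without DMSO replicate 1 (-0.5).

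Of 8 tested neuronal activity genes other than ARC, 5 fell in A673 and 4 in TC32 at 500 nM by limma as deposited, the others not passing, where 82.5% and 62.9% of all tested genes fell and 0.946% rose in each line. The medians were -0.54 and -0.45, against -0.73 and -0.64 for all tested genes, and 3 genes fell in A673 without replicate 1 of its DMSO arrays. The synaptic scaffold gene HOMER1 was at -1.58 and -1.36, the neuritin gene NRN1 at -1.59 and -1.96, and the secretogranin gene SCG2 at -1.84 in A673 and -0.71 in TC32. HOMER1 and NRN1 were lower in both lines on the centred scale too, between -0.56 and -1.17, whereas SCG2 was at -1.01 in A673 and 0.08 in TC32. The TC32 call of SCG2 ended without replicate 1 of the TC32 DMSO arrays (adjusted p 0.0998). After centring, 4 of the 8 were higher and 3 lower in A673, and 4 and 2 in TC32. Over all tested genes 29.6% were higher and 27.4% lower in A673 after centring, and 41.3% and 30.8% in TC32.

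**Figure D4:**
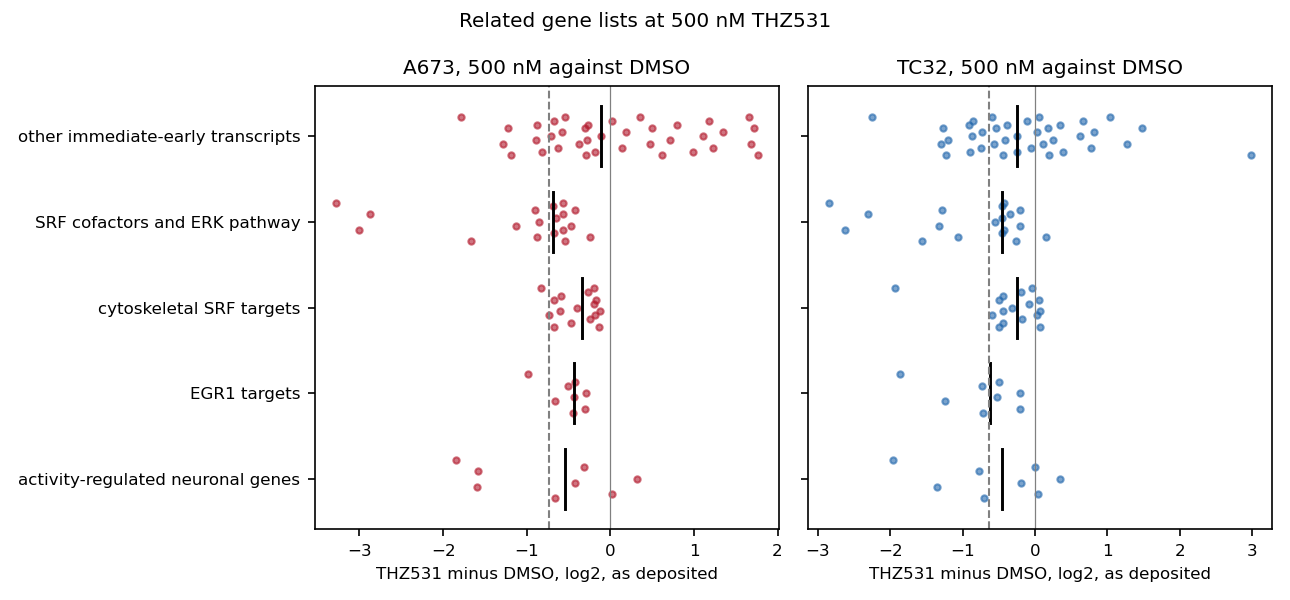
Fitted 500 nM minus DMSO difference (log2 as deposited, horizontal axis) of each tested gene in 5 related lists (rows), A673 on the left and TC32 on the right; black bars are list medians, the dashed line is the median of all tested genes and the thin line marks 0. Other immediate-early transcripts, with medians of -0.11 and -0.24, reach furthest to the right, and the 3 lowest points of the SRF and ERK list are MRTFB, SPRED1 and SOS1.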

How the data were processed

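Total RNA, biotin-labelled, was measured on arrays. The authors deposited log2 signals; how these were normalised is not given in the sources used here. MAS5, GRCh37 and hg19 appear, without a role, in the submitters' processing notes. External RNA controls (ERCC) were added per the labels' protocols, and whether the authors scaled to them is not stated. The DMSO samples also carry a dose label of 100 nM, read as not applying.

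Of 49395 probe sets, those of 1 gene whose 12 values carry 3 decimals were used. These repeat 1 value per gene. The 2829 entries (5.73%) with fewer decimals were not used. Of 17029 genes, 116 sharing their values with another symbol were left out. Genes with a mean at or above the 40th percentile (5.94) were tested. A linear model with 1 mean per group over all 12 arrays was fitted with limma 3.58.1 in R 4.3.3 (variance trend, two-sided, Benjamini-Hochberg adjusted over 10148 genes, called under 0.05), with Python 3.11.15 and pandas 2.3.3 for tables. Array offsets shared by all genes led limma to an infinite prior degree of freedom, so p-values as deposited are smaller than 2 arrays per group warrant; after centring the prior was 15.77 and the median residual SD 0.118, against 0.189. A p-value reflects only how these samples spread, which may be technical. The model was tested on simulated data. Folds of genes with a group mean under 5.94 are counted from that level.

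The members and lists were chosen with earlier results of these data known. Genes named are the members, the 3 nearest to EGR1, IER3 and ARC, and of each list up to 3 highest and 3 lowest called alike in both lines at 500 nM. Alternatives were centring, no filter, mean over distinct sets of values, a replicate block, arrays of 1 line only, no variance trend, and leaving out each array.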

Additional observations from a re-analysis of the deposited data

Results flagged for a closer look

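EGR1 and IER5 differed between the lines in their response to 100 nM, by a test of the difference (limma, TC32 minus A673, n = 2 arrays in each group), at 1.37 and 1.12 (log2, adjusted p 0.00188 and 0.0133). For EGR1 both arrays at 100 nM lay above both DMSO arrays in TC32 and below both in A673. After centring the A673 difference of EGR1 was -0.14 (limma adjusted p 0.38). Both interaction calls held after centring and ended on leaving out certain single arrays, as given above.

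Of the 18 list genes named, 5 differed between the lines at 500 nM by the same test (TC32 minus A673), where 0.552% of all tested genes were called higher and 1.28% lower. The 18 were picked for large 500 nM differences from DMSO on these same arrays. Their counts therefore cannot be weighed against the shares of all tested genes, which were not picked. After centring 7 of the 18 passed, MRTFB (0.93, adjusted p 0.00301; as deposited and counted from 5.94, 0.76) and GADD45B (-0.68, adjusted p 0.0469) in addition, against 3.04% and 6.75% of all tested genes. PLK2 was at 1.76 (adjusted p 6.42e-06), having risen in both lines, but its TC32 DMSO mean lay under 5.94, and counted from that level the difference was 0.54, which was not tested. SCG2 was at 1.13 (adjusted p 0.0115), having fallen further in A673 as deposited. FHL2 was at -1.10 (adjusted p 0.0215), VEGFA at -1.20 (adjusted p 0.00449) and ID3 at -0.83 (adjusted p 0.0253), each further below DMSO in TC32. The TC32 mean of FHL2 at 500 nM lay under 5.94, and counted from that level its difference was -0.66, which was not tested. No cause of these differences was tested.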

How the results depend on the processing

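Centring turned the sign of NAB1 (0.29) in A673 at 100 nM, of NAB1 (-0.06), NAB2 (-0.16) and IER3 (-0.25) between the lines under DMSO, and of IER3 (-0.10), ARC (-0.21) and SRF (-0.09) in the difference of the 100 nM effect. At 500 nM it turned SRF (0.18), FHL2 (0.00), TPM1 (0.16), VCL (0.16), VEGFA (0.17) and ID3 (0.41) in A673, and NAB1 (0.50), TPM1 (0.20), VCL (0.30), FGF2 (0.05) and SCG2 (0.08) in TC32. Near 0, SRF in A673 at 100 nM (-0.02 to 0.07 leaving out an array) turned to -0.02 without replicate 2 of the DMSO arrays and to 0.00 without replicate 2 of the 100 nM arrays, and ARC between the lines (-0.19 to 0.12) turned to 0.12 and 0.09 without A673 DMSO replicate 2 and TC32 DMSO replicate 1. Leaving out each array in turn, the members called were 3 to 7 of 8 in A673 at 100 nM, 4 to 8 in TC32 at 100 nM, 4 to 7 between the lines under DMSO and 0 to 4 for the difference of the 100 nM effect. Over the 5 related lists, 41 genes were called in A673 at 100 nM (18 in a fit of the A673 arrays alone, 18 to 61 leaving out an array). In TC32 at 100 nM 21 were called (50 after centring, 38 in a fit of the TC32 arrays alone, 9 to 34 leaving out an array). At 500 nM the calls leaving out an array were 41 to 80 in A673 and 32 to 64 in TC32. With replicate number within each line as a block, 5 members were called in A673 and 6 in TC32 at 100 nM, 7 between the lines and 3 for the difference of the effect, and of the members only IER5 (A673 at 100 nM) and IER2 (difference of the effect) changed their call. The labels do not say that a number marks a shared culture or day, and replicate differences of 2 groups of a line correlated across genes between -0.16 and 0.24. Leaving out the filter brought EGR3 into the test, and 8 members were then called between the lines under DMSO. Contrasts between lines could not be computed from the arrays of 1 line. The counts over the 5 lists take both directions together. At 100 nM as deposited 1.31% of all tested genes rose and 58.7% fell in A673, and 5.56% rose and 20.9% fell in TC32. After centring 30.6% were higher and 21.2% lower in TC32. Shares of all tested genes are not given for the fits that leave out an array, add a block, drop the filter or take 1 line only. The cause of these changes was not tested. With 2 arrays a group, array number limits precision throughout.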
